A study of Drosophila melanogaster with 8 samples.

Results

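The yellow genes of *Drosophila melanogaster* encode a family of proteins, most of them secreted, that is named after *y* (*yellow*). The members described here were chosen by gene name: *y*, *yellow-b*, *yellow-c*, *yellow-d*, *yellow-d2*, *yellow-e*, *yellow-f*, *yellow-f2*, *yellow-h* and *yellow-k*. Of these 10 genes, 9 had a row among the 13982 genes of the deposited count table, and all 9 had enough reads to be tested along with 9986 genes in all. *yellow-k* had no row by name or by identifier and was not analysed here. The 4 remaining genes of the family, *yellow-e2*, *yellow-e3*, *yellow-g* and *yellow-g2*, were all in the table and only *yellow-g* had enough reads to be tested.

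The study sequenced RNA of whole heads, taken from flies 2 days old, in 8 libraries, 4 of each genotype, and each library was a pool of 20 heads, 10 male and 10 female. Both genotypes carried *nSyb-Gal4*, which drives expression in neurons. The Control flies had it over w[1118], and the ND-75KD flies had it together with an RNAi line (HMS00853) against ND-75, a core subunit of mitochondrial complex I. Photoreceptors are among these neurons. A head also holds glia, fat body, muscle, hemocytes and the epidermis that makes the cuticle, cells that the driver does not target, and the Control flies lacked the RNAi line itself. The paper's text adds a Tub-Gal80ts transgene that the sample labels do not name. Each library was a separate pool, and whether the pools came from separate crosses was not stated, so the p values given here cover no more than the variation among pools. In bulk heads, fewer cells of a type and less RNA per cell cannot be told apart.

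The y protein is secreted by epidermal cells and is needed for black melanin in the cuticle, and flies without it have a yellow-brown body. It is also known for a part in male courtship. Melanin is made from tyrosine by way of dopa and dopamine, which are oxidised and polymerised in the cuticle, and the proteins encoded by *yellow-f* and *yellow-f2* convert dopachrome, an intermediate of that route. *yellow-g* and *yellow-g2* are known from the follicle cells that make the eggshell. In the silkworm, loss of the *yellow-e* gene changes the colour of the larval head and tail. The family shares a protein domain with the major royal jelly proteins of the honey bee.

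*y* also serves fly stocks as a marker, and this bears on every value of *y* given here. In the stock list of the study, the *nSyb-Gal4* stock is y[1] and the ND-75 RNAi stock is y[1] with marker alleles of *sc*, *v* and *sev* and a transgene that carries y[+] and v[+], whereas the w[1118] control is listed with no allele of *y*. By these listings the ND-75KD flies carried a y[+] copy on the transgene, which the Control flies lacked. *y* is X-linked and each library pooled both sexes, and the direction of the cross was not given. The Tub-Gal80ts stock is listed with no allele of *y*, so which alleles the X chromosomes of either genotype carried cannot be read from the listings. y[1] is a change in the start codon, so its transcript can still be counted. The knockdown and the genotype at *y* cannot be told apart in these libraries, and the counts do not separate reads of the *y* gene on the X chromosome from reads of the transgene copy.

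*y* (FBgn0004034) lies on the X chromosome at 356509 to 361245 on the plus strand, in the coordinates of the deposited table, with 1 transcript of 2 exons and an exonic length of 2038 bases. In Control replicates 1 to 4 it had 19, 10, 21 and 13 reads, and in ND-75KD replicates 1 to 4 it had 290, 261, 375 and 363 reads. As CPM, which are counts per library size after scaling by the trimmed mean of M values (TMM), these were 0.778, 0.706, 0.982 and 0.526 in Control and 14.4, 13.1, 15.6 and 13.4 in ND-75KD. Every ND-75KD library was far above every Control library. The mean level rose from 0.748 ± 0.189 CPM (SD, n = 4) to 14.1 ± 1.16 CPM (SD, n = 4). The log2 fold change, ND-75KD over Control as throughout, was 4.23 with a standard error of 0.18 and a 95% interval of 3.82 to 4.64, which is 18.8-fold (adjusted p = 5.72e-07 by the edgeR quasi-likelihood test with Benjamini-Hochberg adjustment over all tested genes). By log2 fold change *y* ranked 18 among all 9986 tested genes.

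**Figure D1:**
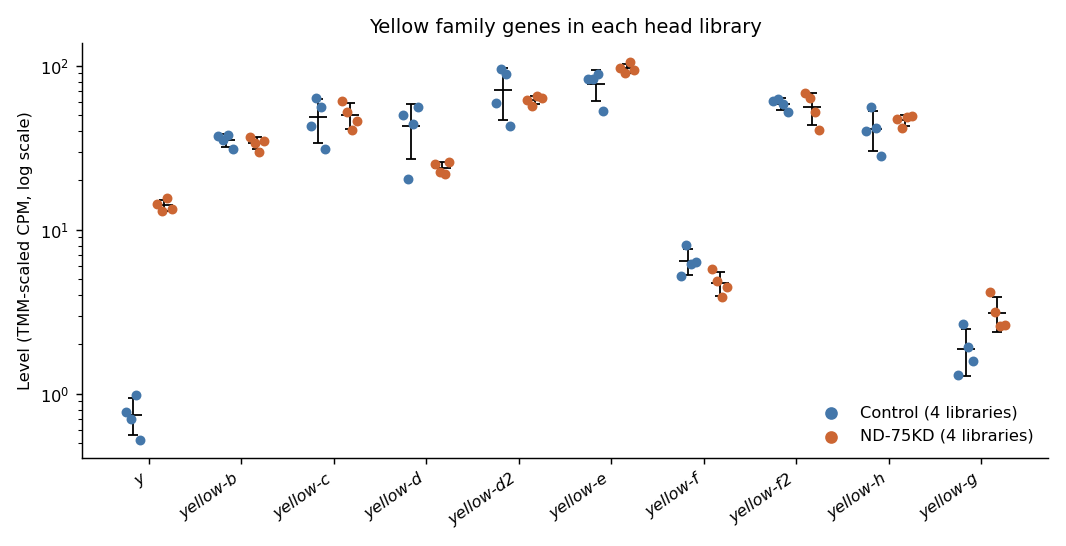
Level of each tested yellow family gene in each library, in CPM on a log scale. Points are libraries, 4 Control in blue and 4 ND-75KD in orange, and bars are the mean ± SD. The *y* points lie at 0.526 to 0.982 CPM in Control and 13.1 to 15.6 CPM in ND-75KD, while the points of most other genes overlap between the genotypes.

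The other members differed far less between the genotypes. A gene was called where its adjusted p was under 0.05. Over all tested genes, 14.3% were called higher and 18.9% lower in ND-75KD heads (33.2% in either direction), and among the 9 members 1 was called higher (*y*), 1 lower (*yellow-d*) and 7 neither. The median log2 fold change of the 9 members was -0.06, beside -0.01 for all tested genes. Groups did not overlap for *y* and *yellow-e*, with every ND-75KD library above every Control library, which was so for 17.2% of all tested genes, and no member had every ND-75KD library below every Control library, which was so for 19.0% of them (36.2% with no overlap in either direction). By these counts the family as a whole was close to the background, and *y* stood apart in the size of its change. The summed level of the 9 members was 302 to 426 CPM in Control and 372 to 418 CPM in ND-75KD libraries.

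*yellow-d* was the member called lower. It lies on chromosome arm 2R at 23378573 to 23380438, plus strand, with an exonic length of 1751 bases. Its level was 49.9, 20.6, 44.0 and 56.3 CPM in Control replicates 1 to 4 and 25.3, 22.5, 21.99 and 25.8 CPM in ND-75KD replicates 1 to 4. The groups overlapped because Control replicate 2 was below every ND-75KD library, while the other Control libraries were all above them. The means were 42.7 ± 15.6 and 23.9 ± 1.95 CPM (SD, n = 4 each), and the log2 fold change was -0.84 with a standard error of 0.25 (edgeR adjusted p = 0.0242). Without Control replicate 2 the Control mean was 50.1 ± 6.14 CPM (SD, n = 3), the groups did not overlap and the log2 fold change was -1.06 (edgeR adjusted p = 6.90e-05). The call was lost when Control replicate 1, 3 or 4 or ND-75KD replicate 2 or 3 was left out, with log2 fold changes of -0.72, -0.80, -0.68, -0.81 and -0.80 in that order (edgeR adjusted p = 0.0654, 0.0658, 0.0528, 0.0633 and 0.0685).

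Control replicate 2 also stood apart from the rest of the series, with 23.9% of its counts in the mitochondrial rRNA gene mt:lrRNA against 4.58% to 9.0% in the other libraries. In 4 marker lists of cell types, every called gene was lower in ND-75KD heads, as *yellow-d* was. Over all tested genes 14.3% were called higher and 18.9% lower. All 4 hemocyte markers were called lower, with a summed level of 116 to 154 CPM in Control and 50.7 to 70.6 CPM in ND-75KD libraries, and 3 of 4 fat body markers were called lower, with 2981 to 4596 CPM in Control and 1257 to 1908 CPM in ND-75KD libraries. Of 6 photoreceptor markers 3 were called lower, with 21205 to 30286 CPM in Control and 14391 to 17307 CPM in ND-75KD libraries, and of 5 glia markers 2 were called lower, with 2106 to 2725 and 1783 to 2005 CPM. No marker of these 4 lists was at 0 over all libraries together. The remaining marker lists went otherwise. Of 5 neuron markers 2 were called higher and 0 lower, and of 5 muscle markers 1 higher and 0 lower. Of 6 epidermis and cuticle markers 2 were called higher and 1 lower. In Control replicate 2 the hemocyte markers summed to 119.0 CPM and the fat body markers to 2981 CPM, above every ND-75KD library. *apolpp* alone gave 2701 CPM of that fat body sum. The fat body and photoreceptor sums of Control replicate 2 were the lowest of the Control libraries, and its glia sum was the highest. *yellow-d* in Control replicate 2 was below every ND-75KD library. The part of these cells in the *yellow-d* values was not tested.

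*yellow-d2* lies next to *yellow-d*, 758 bases further along the same strand, at 23381197 to 23382591 on 2R. Its level was 59.0, 95.7, 89.1 and 43.1 CPM in Control and 61.8, 56.8, 65.8 and 63.7 CPM in ND-75KD replicates 1 to 4. All 4 ND-75KD libraries lay inside the range of the Control libraries, and the log2 fold change was -0.21 (95% interval -0.68 to 0.27, edgeR adjusted p = 0.479). Within Control heads the neighbours went opposite ways, since replicate 2 had the lowest *yellow-d* and the highest *yellow-d2*, and replicate 4 had the highest *yellow-d* and the lowest *yellow-d2*. The ratio of *yellow-d* to *yellow-d2* CPM was thus 0.846, 0.215, 0.494 and 1.31 in Control, but only 0.334 to 0.410 in ND-75KD libraries. The mean log2 ratio was lower by 0.60 in ND-75KD, a difference within the spread of the Control libraries (two-sided exact permutation test over 70 regroupings, p = 0.314, adjusted p = 0.314 over 2 ratios). Both genes lie inside the span of CG13551 on the other strand, with no shared exon, and CG13551 was at 222 CPM in Control replicate 2, 97.8 to 150 CPM in the other Control libraries and 88.4 to 112 CPM in ND-75KD libraries.

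*yellow-f* and *yellow-f2*, the pair whose proteins convert dopachrome, lie 193 bases apart on the minus strand of 3R, at 12991449 to 12993201 and 12993395 to 12995147. *yellow-f* was at 5.20, 8.05, 6.22 and 6.35 CPM in Control and 5.76, 4.90, 3.88 and 4.50 CPM in ND-75KD replicates 1 to 4. Only ND-75KD replicate 1 reached into the Control range, and the log2 fold change of -0.43 (standard error 0.18) was not called (edgeR adjusted p = 0.0821). *yellow-f2* was at 60.9, 62.9, 58.3 and 52.4 CPM in Control and 68.2, 63.6, 52.2 and 40.5 CPM in ND-75KD replicates 1 to 4. ND-75KD libraries lay on both sides of the Control range, and the log2 fold change was -0.06 (95% interval -0.40 to 0.27, edgeR adjusted p = 0.767). The ratio of *yellow-f* to *yellow-f2* CPM was 0.0853 to 0.128 in Control and 0.0743 to 0.111 in ND-75KD libraries. The mean log2 ratio was lower by 0.35 in ND-75KD, and the ranges overlapped (two-sided exact permutation test, p = 0.114, adjusted p = 0.229 over 2 ratios). The smallest p that 4 against 4 libraries allow in this test is 0.0286.

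*yellow-e* lies on the minus strand of 3R at 13409543 to 13415286 and overlaps no other gene. Its level was 83.6, 83.5, 89.4 and 53.1 CPM in Control and 96.5, 90.4, 105 and 93.9 CPM in ND-75KD replicates 1 to 4. Every ND-75KD library was above every Control library, by a narrow margin over Control replicate 3. The means were 77.4 ± 16.4 and 96.5 ± 6.29 CPM (SD, n = 4 each), and the log2 fold change of 0.32 (standard error 0.15, 95% interval -0.01 to 0.65) was not called (edgeR adjusted p = 0.123). With the trend of counts on gene length removed from each library it was 0.42 and was called (edgeR adjusted p = 0.0281).

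*yellow-b* and *yellow-c* are on 2L, at 16754336 to 16758283 and 15035394 to 15037841, both on the plus strand. *yellow-b* was the member with the narrowest interval, at 37.5, 35.2, 38.1 and 31.0 CPM in Control and 36.9, 34.0, 29.9 and 34.8 CPM in ND-75KD replicates 1 to 4. The groups overlapped almost wholly, and the log2 fold change was -0.06 (95% interval -0.29 to 0.17, edgeR adjusted p = 0.660). *yellow-c* was at 43.0, 63.8, 56.0 and 31.0 CPM in Control and 61.4, 52.6, 40.9 and 45.9 CPM in ND-75KD replicates 1 to 4. All ND-75KD values lay inside the Control range, and the log2 fold change was 0.05 (95% interval -0.41 to 0.51, edgeR adjusted p = 0.858).

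*yellow-h* is on chromosome 4 at 227922 to 230428, plus strand. Its level was 40.0, 55.7, 42.0 and 28.2 CPM in Control and 47.6, 41.5, 49.0 and 49.3 CPM in ND-75KD replicates 1 to 4. The ND-75KD libraries lay inside the wider Control range, and the log2 fold change was 0.18 (95% interval -0.20 to 0.56, edgeR adjusted p = 0.446). Among the 5 rows of the table on each side of *yellow-h*, 9 genes were tested, 5 were called higher and 0 lower, beside 14.3% and 18.9% of all tested genes. For all members together, such rows held 54 tested genes outside the family, of which 13 were called higher and 10 lower, beside the same background shares.

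**Figure D2:**
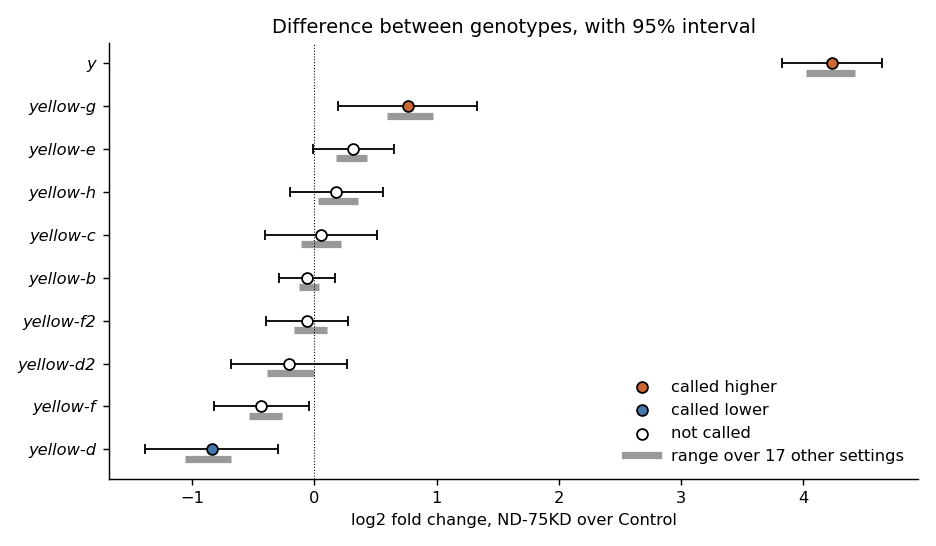
Log2 fold change of each tested yellow family gene, ND-75KD over Control. Points are the edgeR values with their 95% interval, filled where called, and grey bars are the range over 17 other settings. *y* is at 4.23, and every other gene lies between -0.84 and 0.76.

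Outside the chosen members, *yellow-g*, on 3L at 2269881 to 2272769, was at 1.31, 2.68, 1.92 and 1.58 CPM in Control and 4.17, 3.15, 2.59 and 2.62 CPM in ND-75KD replicates 1 to 4. Control replicate 2 was above ND-75KD replicates 3 and 4, so the groups overlapped. It was called higher, with a log2 fold change of 0.76 and a standard error of 0.26 (edgeR adjusted p = 0.0424). The call was lost when any 1 library other than Control replicate 2 was left out, with adjusted p of 0.0557 to 0.122. *yellow-g2* had 3, 6, 5 and 10 reads in Control and 14, 11, 9 and 8 reads in ND-75KD replicates 1 to 4. *yellow-e2* had 1 to 5 reads in every library, and *yellow-e3* had 1 read in Control replicate 3, 2 reads in ND-75KD replicate 1 and none in the others. A count of 0 allows up to 3 reads, which is 0.111 to 0.212 CPM in these libraries, and covers counting error only.

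Levels of different genes were compared per length, as CPM per kilobase of the deposited gene length (RPKM). In Control heads *yellow-d2* was the highest, at 53.5 ± 18.6 RPKM (SD, n = 4). It was followed by *yellow-e* at 42.0 ± 8.92 RPKM, *yellow-f2* at 40.1 ± 3.14 RPKM, *yellow-c* at 30.3 ± 9.04 RPKM, *yellow-h* at 27.6 ± 7.51 RPKM, *yellow-d* at 24.4 ± 8.90 RPKM and *yellow-b* at 19.3 ± 1.75 RPKM. Among these 7 genes each overlapped in its library values with the next in the order. Below a gap came *yellow-f* at 4.49 ± 0.822 RPKM, *yellow-g* at 1.39 ± 0.443 RPKM and *y* at 0.367 ± 0.0927 RPKM. The library values of *yellow-f*, *yellow-g* and *y* did not overlap with those of the gene above them. *y* was thus rank 10 of 13 family genes in Control heads, above only the genes with too few reads to test.

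In ND-75KD heads *y* was rank 8 of 13, at 6.93 ± 0.571 RPKM (SD, n = 4), above *yellow-f* at 3.31 ± 0.546 RPKM and *yellow-g* at 2.33 ± 0.549 RPKM. It stayed below *yellow-d* at 13.7 ± 1.11 RPKM and *yellow-b* at 18.4 ± 1.61 RPKM. *yellow-e* was the highest, at 52.3 ± 3.41 RPKM, ahead of *yellow-d2* at 46.2 ± 2.86 RPKM, and their library values overlapped. *yellow-f2*, *yellow-c* and *yellow-h* followed at 38.4 ± 8.49, 31.4 ± 5.54 and 31.1 ± 2.42 RPKM, also with overlapping values. *y* made up 0.165% to 0.230% of the reads of the 13 family genes in Control libraries and 3.40% to 4.04% in ND-75KD libraries. The Wilson 95% intervals, which cover counting error only and not the variation among pools, reached up to 0.352% in Control replicate 3 and down to 3.02% in ND-75KD replicate 2.

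**Figure D3:**
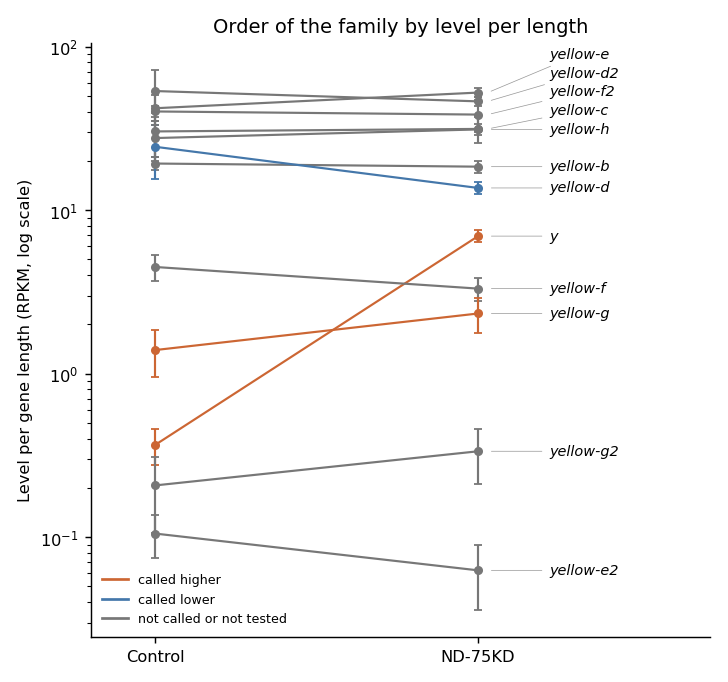
Mean level per gene length of the family in each genotype, in RPKM on a log scale, with bars of ± SD over 4 libraries. *y* goes from 0.367 RPKM in Control to 6.93 RPKM in ND-75KD and passes *yellow-f* and *yellow-g*, while the 7 genes above stay higher. *yellow-e3*, with 3 reads in all, is left out.

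The spread between libraries was wider in Control than in ND-75KD heads for 8 of 9 members, the exception being *yellow-f2*. The same held for 78.9% of all tested genes, so that the members' share was near that of the table as a whole. The median coefficient of variation of the members was 25.2% in Control and 8.24% in ND-75KD heads, beside 16.9% and 8.47% over all tested genes. Both medians of the members were the values of *y* itself, which had 10 to 21 reads in Control libraries. Without Control replicate 4 the spread was wider in Control for 6 of 9 members (66.7%, beside 73.3% of all tested genes), and without Control replicate 2 for 7 (77.8% beside 67.7%). The Control median of the members was then 18.7% and 20.3%, beside 15.9% and 12.6%. Control replicate 4 was the lowest Control library for 7 of the 9 members and Control replicate 2 the highest for 5 of them. The TMM factor of Control replicate 2 was 0.651, against 0.940 to 1.15 in the other libraries. This raises its CPM, so its place as the highest library depends on the scaling. Control replicate 4 also had the lowest summed level of 6 epidermis and cuticle markers, 639.9 CPM against 931 to 1204 CPM in the other Control libraries and 986 to 1402 CPM in ND-75KD libraries. Of these markers 2 were called higher and 1 lower in ND-75KD heads, and none was at 0 over all libraries together. Their part in the members' values was not tested.

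Other marker genes named in the same stock listing were compared in the same way. *v*, which encodes the tryptophan dioxygenase of brown eye pigment synthesis, was at 48.1, 62.2, 52.0 and 49.9 CPM in Control and 17.9, 15.3, 10.3 and 11.9 CPM in ND-75KD replicates 1 to 4. It fell in every ND-75KD library, with a log2 fold change of -1.94 and a standard error of 0.17 (edgeR adjusted p = 4.42e-05). In the RNAi stock the listings give *v*, like *y*, a mutant allele with a wild-type copy on the transgene. The *nSyb-Gal4* stock, however, is listed as y[1] with no allele of *v*, so the genes are not matched in the Control flies. The counts of *y* and *v* went opposite ways, and the part of the transgene copies in either was not tested. *sev*, a receptor tyrosine kinase of the developing R7 photoreceptor, fell from 82.4 ± 13.1 to 51.0 ± 3.90 CPM (log2 fold change -0.69, standard error 0.12, edgeR adjusted p = 0.00217), and shares exonic sequence with *asRNA:CR44358* on the other strand. The opsin genes *ninaE*, *Rh4* and *Rh6* of the photoreceptor list were also called lower, with log2 fold changes of -0.79, -0.92 and -0.77. The rest of that list, *Rh3*, *Rh5* and *chp*, was not called, with log2 fold changes of -0.14, 0.06 and 0.23. The part of photoreceptors in the *sev* values was not tested. *w*, a transporter of eye pigment precursors, was at 47.1 ± 5.09 CPM in Control and 58.9 ± 3.80 CPM in ND-75KD heads, with no overlap (log2 fold change 0.32, edgeR adjusted p = 0.0345). The *w* call was lost without ND-75KD replicate 1, 2 or 3 (edgeR adjusted p = 0.0861, 0.0852 and 0.0961). In the listings the w[1118] control and the *nSyb-Gal4* stock carry an allele of *w*, and none is given for the RNAi stock. The RNAi stock is listed with a *sev* allele and no copy of *sev* on its transgene. At *w* and *sev*, too, the knockdown and the genotype cannot be told apart in these libraries. *sc* was not analysed here. The target of the RNAi, ND-75, fell from 626 ± 64.9 to 306 ± 16.0 CPM (log2 fold change -1.03, standard error 0.11, edgeR adjusted p = 1.48e-04), with every ND-75KD library below every Control library.

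The region around *y* was read from the 5 table rows on each side of it. *CG32816* spans *y* on the other strand and shares no exon with it. It was at 17.5, 12.2, 12.8 and 10.2 CPM in Control and 29.1, 28.0, 31.3 and 27.2 CPM in ND-75KD replicates 1 to 4. All ND-75KD libraries were above all Control libraries, with a log2 fold change of 1.13 and a standard error of 0.15 (edgeR adjusted p = 5.00e-04), a rise much smaller than that of *y*. *ebo*, named for the ellipsoid body of the brain, was called higher with a log2 fold change of 0.45 (edgeR adjusted p = 0.0315). *Or1a*, an odorant receptor, and *Cyp4g1*, a cytochrome P450 of cuticular hydrocarbon synthesis, were called lower at low levels, with log2 fold changes of -1.31 and -2.03 (edgeR adjusted p = 0.0253 and 0.0339), and in both the groups overlapped. *CR18275* was not called, and the other 5 rows had 2 to 62 reads in all 8 libraries together and were not tested. The nearest of these downstream of *y* was *lncRNA:yar*, 1153 bases away, with 0, 0, 6 and 2 reads in Control and 2, 1, 1 and 0 reads in ND-75KD replicates 1 to 4. Of the called neighbours, *CG32816* kept its call in all 17 other settings. *ebo* lost it without Control replicate 3 or any 1 ND-75KD library, *Or1a* without Control replicate 1 or 4 or any 1 ND-75KD library, and *Cyp4g1* without ND-75KD replicate 1, 2 or 3. *Cyp4g1* had too few reads to be tested without Control replicate 1 or 4, and its log2 fold change was -1.06 with limma voom (adjusted p = 0.158) and -1.81 to -2.49 over the other left-out libraries.

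**Figure D4:**
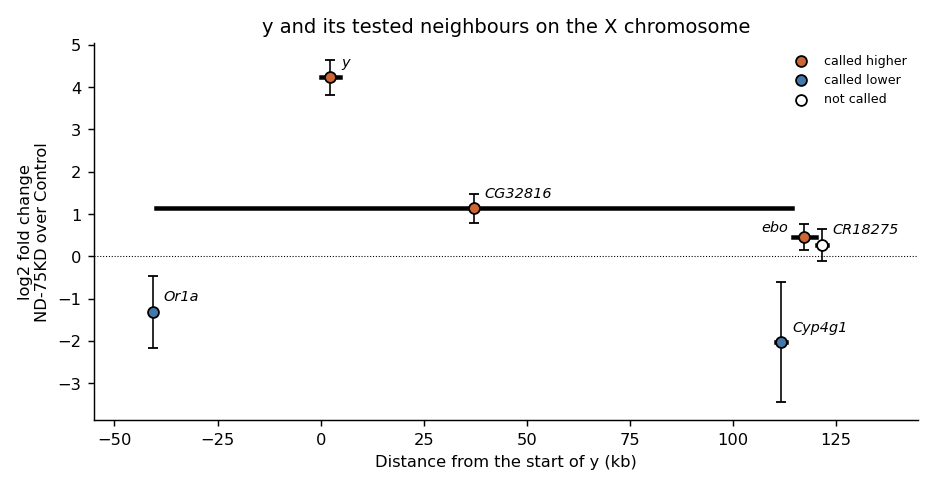
Log2 fold change, ND-75KD over Control, of *y* and the tested genes among the 5 table rows on each side, by distance from the start of *y* in kilobases. Points are at the middle of each gene, horizontal bars show its extent and vertical bars the 95% interval. *y* is at 4.23, *CG32816*, which spans it, at 1.13, and the other 4 genes between -2.03 and 0.45.

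Many members share their place with another gene. Among the 9 members in the table, 7 overlap the span of a gene on the other strand and 4 of them share exonic sequence with it: *yellow-b* with *ppk17*, *yellow-c* with *CIAPIN1*, *yellow-f* with *CG31342* and *yellow-h* with *asRNA:CR46065*. The strand setting of the counting was not given, so reads of such partners cannot be told apart. *ppk17*, *CIAPIN1* and *CG31342* were not called. *asRNA:CR46065* was at 0.768 ± 0.249 CPM in Control and 1.42 ± 0.240 CPM in ND-75KD heads (SD, n = 4 each) and was called higher (log2 fold change 0.91, edgeR adjusted p = 0.0326).

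The genes whose course over the 8 libraries was most like that of *y* were found by the root mean square difference of the log2 CPM profiles, each centred on its own mean. The closest was *Ldh*, lactate dehydrogenase, with a difference of 0.376. It was at 24.6, 39.5, 29.1 and 12.0 CPM in Control and 432, 472, 488 and 538 CPM in ND-75KD replicates 1 to 4, a log2 fold change of 4.21. It was followed by *lncRNA:CR44522* at 0.378, *CG34375* at 0.404, *c(2)M* at 0.428 and *CG5697* at 0.466. *CG34375* and *CG5697* had log2 fold changes of 3.48 and 3.57, and *lncRNA:CR44522* and *c(2)M* had 5.80 and 5.38. *lncRNA:CR44522* and *c(2)M* had no more than 2 reads in any Control library. The profiles used a prior count of 2, which draws in such low values. All 5 were chosen for likeness to the *y* profile, so their large rises follow from the choice and are not separate evidence. *lncRNA:CR44522* lies close to *Ldh* on the same strand of 3L, so these matches are not separate places in the genome. For *yellow-d* the closest were *Adgf-A*, an adenosine deaminase-related growth factor, at 0.161, *CG3306* at 0.171 and *CG32645* at 0.204. *Adgf-A* and *CG3306* were called lower (log2 fold changes -0.80 and -0.95, edgeR adjusted p = 0.0208 and 0.0235), and all 3 had their lowest Control value in replicate 2, as *yellow-d* did. The genes were chosen for likeness to the *yellow-d* profile, so these shared traits follow from the choice and are not separate evidence.

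The genes around the family in catecholamine and melanin synthesis were given by a list of 17 names, 15 of which were in the table and tested. Of these, 5 were called higher and 2 lower, beside 14.3% and 18.9% of all tested genes, with a median log2 fold change of 0.09 beside -0.01 over all tested genes. *ple*, the tyrosine hydroxylase that makes dopa, was at 232, 183, 209 and 149 CPM in Control and 639, 665, 700 and 591 CPM in ND-75KD replicates 1 to 4. It rose in every ND-75KD library, with a log2 fold change of 1.75 and a standard error of 0.14 (edgeR adjusted p = 3.45e-05). *e* (*ebony*), which joins beta-alanine to dopamine, was at 101.7, 106, 114 and 75.7 CPM in Control and 642, 589, 608 and 444 CPM in ND-75KD replicates 1 to 4. Its rise was the largest of the list, with a log2 fold change of 2.52 and a standard error of 0.16 (edgeR adjusted p = 8.29e-06). Both also serve the nervous system, *ple* in dopamine neurons and *e* in glia. Of 5 neuron markers 2 were called higher and 0 lower, with a summed level of 1809 to 2518 CPM in Control and 2459 to 2676 CPM in ND-75KD libraries, while 2 of 5 glia markers were called lower and 0 higher. None of these markers was at 0, and their part in the values of *ple* and *e* was not tested. *b* (*black*), which makes beta-alanine, rose from 50.1 ± 15.1 to 94.9 ± 20.4 CPM (SD, n = 4 each, log2 fold change 0.92, edgeR adjusted p = 0.0103).

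*PPO1*, a prophenoloxidase of hemolymph melanisation, rose from 14.1 ± 2.02 to 45.6 ± 4.16 CPM (SD, n = 4 each, log2 fold change 1.70, edgeR adjusted p = 1.38e-05). All 4 hemocyte markers were called lower in the same libraries. Whether they mark the cells that express *PPO1*, and the part of hemocytes in its values, was not tested. *amd*, a decarboxylase relative needed for cuticle, had a log2 fold change of 0.59 (edgeR adjusted p = 0.0436), with overlapping groups, and kept its call among left-out libraries only without Control replicate 3. *Catsup*, known as a negative regulator of tyrosine hydroxylase, fell from 37.8 ± 2.82 to 23.3 ± 1.28 CPM (SD, n = 4 each, log2 fold change -0.70, edgeR adjusted p = 4.86e-04). *Dhpr*, dihydropteridine reductase, fell from 76.0 ± 14.2 to 52.0 ± 6.57 CPM (SD, n = 4 each, log2 fold change -0.55, edgeR adjusted p = 0.0157), a call lost without Control replicate 3 or ND-75KD replicate 3 (edgeR adjusted p = 0.0595 and 0.0528). *Catsup* and *Dhpr* share exonic sequence with a gene on the other strand. *stw*, the laccase of cuticle tanning, had every ND-75KD library above every Control library and was not called (log2 fold change 0.48, edgeR adjusted p = 0.0868). *Ddc*, dopa decarboxylase, and *t* (*tan*), which releases dopamine from its beta-alanine conjugate, had log2 fold changes of -0.07 and -0.11 and were not called.

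**Figure D5:**
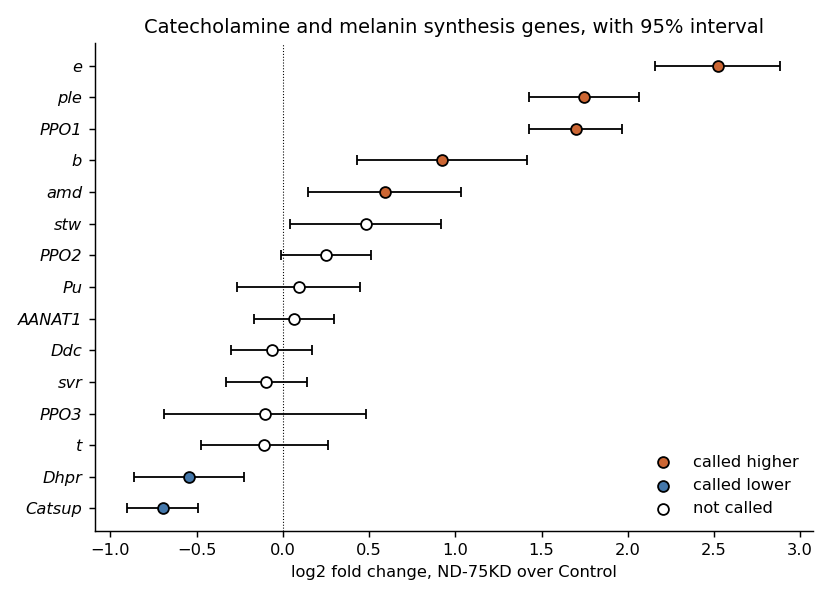
Log2 fold change, ND-75KD over Control, of the 15 tested genes of catecholamine and melanin synthesis, with 95% intervals. Filled points were called, 5 higher and 2 lower. *e* is at 2.52, *ple* at 1.75 and *PPO1* at 1.70, and *Catsup*, at -0.70, is the lowest.

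In a list of 7 genes of tanning hormone signalling, all tested, 2 were called higher and 0 lower, where 14.3% of all tested genes were called higher and 18.9% lower, so that with so few genes the count says little about the list. They were *rk*, the receptor of bursicon, from 5.12 ± 1.02 to 7.61 ± 1.12 CPM (SD, n = 4 each, log2 fold change 0.57, edgeR adjusted p = 0.0275), and *CCAP-R*, the receptor of crustacean cardioactive peptide, from 3.93 ± 0.595 to 5.88 ± 0.634 CPM (log2 fold change 0.59, edgeR adjusted p = 0.0161). The *rk* call was lost without Control replicate 4 or ND-75KD replicate 2 or 4 (edgeR adjusted p = 0.0557, 0.0871 and 0.0589), and *rk* shares exonic sequence with *NimC2* on the other strand. Of 6 transcription factor genes listed as regulators of *y*, 5 were tested and 1 was called. This was *bab2*, a repressor of *y* in the abdomen, at 29.8 ± 3.95 CPM in Control and 38.6 ± 1.68 CPM in ND-75KD heads (SD, n = 4 each, log2 fold change 0.37, edgeR adjusted p = 0.0253), a call lost without any 1 of the ND-75KD libraries (edgeR adjusted p = 0.0529 to 0.0761).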

How the data were processed

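The members and gene lists were chosen with earlier results of these data known. Read counts per gene were deposited by the authors, who used fastp to clean the paired-end reads, HISAT2 to align them and featureCounts to count them, on Ensembl 102. Versions and the strand setting were not given in the sources used here. The deposited table also holds signal values (counts scaled by the authors with DESeq2), FPKM, the authors' log2 fold changes and the authors' p-values, and none of these were used.

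Library totals were 21758154 to 24680283 counts in Control and 17448199 to 24071517 in ND-75KD. The counts were tested in edgeR 4.0.16 (R 4.3.3), with TMM scaling, filterByExpr (minimum count 10, minimum total 15), the quasi-likelihood test and Benjamini-Hochberg adjustment. The standard error was the log2 fold change over the root of F. The test was checked on simulated libraries with known changes.

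Genes named were all members and other family genes, called genes of the 3 pathway lists, the stock markers, the 5 rows on each side of *y*, ND-75, and the 5 profiles closest to *y* and 3 closest to *yellow-d*. *stw*, *Ddc*, *t*, mt:lrRNA and genes that overlap a member or another named gene were named after their values were seen, and the 2 ratios of neighbouring members were added then too. Alternatives were DESeq2 1.42.0, limma 3.58.1 voom, other scaling and filters, a length correction, a replicate block, the leaving out of each library and glmTreat with a minimum fold of 1.2. Gene overlaps came from Ensembl 115. Of the 13913 genes of the table found in that release, 99.7% had the same coordinates.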

Additional observations from a re-analysis of the deposited data

Results flagged for a closer look

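In Control heads *yellow-e* was at 53.1 CPM in replicate 4 and at 83.5 to 89.4 CPM in the other replicates. The gap of replicate 4 to the nearest library was 0.836 of the whole range of the group, above the critical value of Dixon's test for 4 samples at the 95% level. The tested family genes gave 20 groups to examine in this way, and chance marks about 1 in 20 groups. Without Control replicate 4 the log2 fold change of *yellow-e* was 0.17 (edgeR adjusted p = 0.151).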

How the results depend on the processing

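*y* was called higher in all 17 other settings, with log2 fold changes of 4.02 to 4.43. Values without test support changed sign in some: *yellow-b* was at 0.036 and *yellow-f2* at 0.10 with the length trend removed, *yellow-b* was at -0.13 to 0.0057 over left-out libraries, *yellow-c* at -0.11 to 0.21 and *yellow-f2* at -0.17 to 0.066. The cause was not tested. With the length trend removed 2 members were called higher, *y* and *yellow-e*, as were 4 tanning hormone genes (also 4 by DESeq2) and 2 regulators of *y*. Against a fold of 1.2 there were 0 members called lower, 0 other family genes, 0 tanning hormone genes and 0 regulators called, and 696 genes called higher and 1121 lower over all tested, a stricter test by its construction. With 1 library left out, members called higher stayed at 1 and members called lower were 0 to 1, other family genes 0 to 1, tanning hormone genes 1 to 4, regulators 0 to 1, and all genes called higher 931 (without ND-75KD replicate 3) to 1723 and lower 1308 to 1980.

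Replicate numbers did not pair the libraries: deviations of same-numbered libraries correlated at -0.11 to 0.03. With the replicate number as a block, *y* was at 4.25, 1154 genes were called higher and 1553 lower, and 0 of the other family genes, *yellow-g* being lost (edgeR adjusted p = 0.0683), as were *w* (0.0827) and *rk* (0.0527). The low counts of *y* in Control heads, 10 to 21 reads, limit the precision of its fold change more than the counts in ND-75KD heads do.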
